A study of Mus musculus with 23 samples.

Results

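RNA of 2 fractions of the injured mouse spinal cord was compared after an injection of hydrogel that, by the column names of the deposited tables, was empty. The comparison holds 6 of the 23 libraries of the series: 3 of RNA precipitated with tagged ribosomes (HA) and 3 of the RNA left behind (FT, the flow-through). They were chosen by label, as the hydrogel CT libraries whose title numbers, 1724, 1759 and 1762, occur in both fractions. The mice are described as young adult mGFAP-Cre-RiboTag animals, while the sample labels give the genotype as wild type. In these mice a mouse Gfap promoter drives Cre recombinase, and Cre switches a ribosomal protein to a form that carries a hemagglutinin tag. The study's description gives the same mice and a severe crush of the cord at thoracic level 10 for all groups, also those without hydrogel. The hydrogel depot followed on day 2, and the central 3 mm of the lesion was taken on day 14. The labels do not explain CT. They do not say whether each title number was 1 animal, so every p-value rests on variation among libraries, which may be technical. In the main test this variation was taken from a trend common to all genes. A very small p-value there does not measure how closely the libraries agree for that gene.

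Ribosome tagging reports the messages that ribosomes hold in the cells where Cre has acted, whereas the flow-through holds the RNA of every cell in the tissue that the antibody did not retain. Astrocytes answer a spinal injury by raising Gfap and by building a scar border around the lesion core, which fills with microglia, blood-borne macrophages and fibroblasts. Gfap is also active in some neural progenitors, so cells that pass through such a stage can carry the tag as well. The comparison asks which transcripts the precipitate gained or lost relative to the rest of the same tissue, with the hydrogel in place. In bulk RNA, fewer cells of a type and less RNA per cell cannot be told apart.

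The fractions differed widely in depth. Total counts were 10591097 to 12604450 in HA and 28359 to 85234 in FT, and 1 read was worth 0.0984 to 0.169 CPM (counts scaled to library size with TMM) in HA but 9.09 to 19.1 CPM in FT. Yam1, a noncoding locus known to collect ribosomal RNA reads, took 40.0% to 57.6% of the HA counts and 28.3% to 41.9% of the FT counts. Every value below is given in the order 1724, 1759, 1762. Of the 4781 genes listed for both fractions, 4253 passed the filter on low counts, 4164 of them protein-coding. Of those 4253, 1991 had a read in every FT library and 178 had none in any. For the latter a fitted difference is no measured fold, and none is given.

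With the title number as a block, 243 of 4253 genes (5.71%) passed an adjusted p of 0.05 in edgeR's quasi-likelihood test. Of these, 170 (4%) were higher in HA and 73 (1.72%) were lower. A read in every FT library was found for 189 of the genes called. The others passed the filter on low counts only with the help of their HA reads. Scaling by DESeq2 size factors gave 118 higher and 94 lower, a share of higher calls of 55.7% in place of 70.0%. Lower calls outnumbered higher ones with the DESeq2 test (140 higher and 189 lower) and among genes with a mean of at least 50 CPM (73 and 87). The DESeq2 size factors also lowered the median log2 difference of all genes from 0.62 to 0.37. Among genes with a read in every FT library the median under TMM was 0.16, and differences are best read against these values. In 159 of the genes called higher, all 3 HA libraries lay above all 3 FT libraries, and in 60 of those called lower all 3 lay below. Over all genes tested, such a gap occurred in 20.6% and 5.45%. Without the block 78 were higher and 51 lower, and 126 calls were shared. The adjusted p of Mt1, Gfap and Cdr1 in that fit was 0.000123, 0.000421 and 0.000123, far larger than with the block. Leaving out 1724, 1759 or 1762 left 109, 72 or 96 genes higher and 57, 28 or 64 lower. No gene was called in the opposite direction under any of the 13 alternatives.

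**Figure D1:**
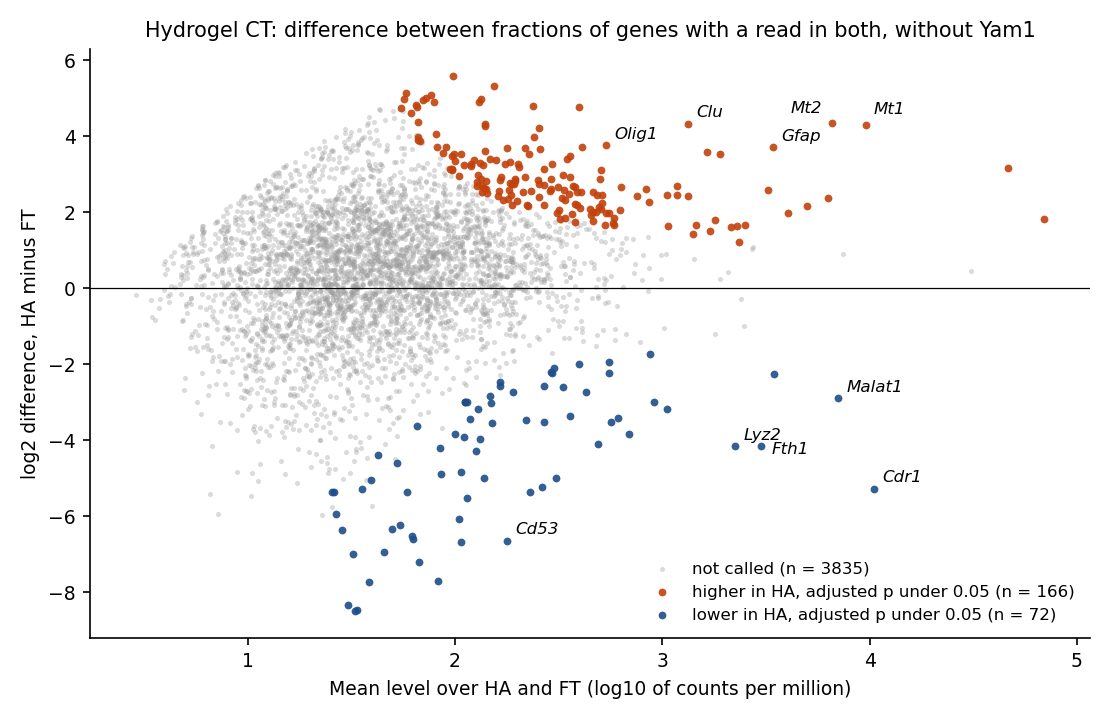
Each point is 1 of the 4073 genes with a read in both fractions, Yam1 left out; the x axis is the mean level over HA and FT (log10 of CPM) and the y axis the log2 difference, HA minus FT. Orange points (166) were called higher in HA and blue points (72) lower, and calls at low levels needed larger differences than calls at high levels.

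Protein-coding genes called higher and lower had a median GC content of 50.5% and 48.5%, against 48.7% for genes not called. Their median transcript length was 2759 and 2733.5 bases, against 3512 bases for the 3931 protein-coding genes not called. Called genes also had more reads in FT. Their median was 15 FT reads in all for higher and 59.5 for lower genes, against 7 for genes not called.

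The clearest gain in the precipitate was that of the metallothioneins, small cysteine-rich proteins that bind zinc and copper and are known to be induced in astrocytes by metals and glucocorticoids. Mt1 (chromosome 8, 94179082 to 94180327, mm10) stood at 13170.4, 26090.2 and 15461 CPM in HA and 977, 1055 and 667 CPM in FT. Mt2, its neighbour on the same strand (chromosome 8, 94172664 to 94173568), stood at 8682, 18914 and 9844 CPM in HA and 298, 1028 and 609.6 CPM in FT. For both genes the lowest HA library lay far above the highest FT library. HA 1759 was the highest library for each. The fitted difference was 19.8-fold for Mt1 (log2 4.31, SE 0.37, adjusted p = 1.94e-27) and 20.4-fold for Mt2 (log2 4.35, SE 0.40, adjusted p = 7.19e-25). Mt3, the form associated with the brain, had 115, 572 and 573 reads in HA and 0, 1 and 0 in FT. Its difference did not pass (log2 4.09, SE 1.83, adjusted p = 0.197). Together the 3 genes took 4.88, 9.17 and 4.74 percent of the protein-coding counts without Lars2 in HA and 0.431, 0.589 and 0.388 percent in FT, which is 11.3, 15.6 and 12.2 times as much within each number.

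Because Mt1 and Mt2 moved together, the 250 bases before their annotated starts are shown, from RefSeq on GRCm38.p6, plus strand, 5′ to 3′. Capitals mark matches on either strand to the core of the metal response element, searched as TGCACNC and TGCGCNC. The windows end at the RefSeq start and leave out the bases after it. The gene positions above come from GENCODE, which places the starts differently: the Mt1 window ends just inside the gene and the Mt2 window ends before it. Which start these cells use was not tested. They cover chr8:94178839-94179088 for Mt1 and chr8:94172368-94172617 for Mt2.
Mt1: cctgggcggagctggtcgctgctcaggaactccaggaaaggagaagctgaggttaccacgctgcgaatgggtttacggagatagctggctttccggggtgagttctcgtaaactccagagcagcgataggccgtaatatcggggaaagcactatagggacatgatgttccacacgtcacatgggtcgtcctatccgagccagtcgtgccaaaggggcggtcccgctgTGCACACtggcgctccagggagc
Mt2: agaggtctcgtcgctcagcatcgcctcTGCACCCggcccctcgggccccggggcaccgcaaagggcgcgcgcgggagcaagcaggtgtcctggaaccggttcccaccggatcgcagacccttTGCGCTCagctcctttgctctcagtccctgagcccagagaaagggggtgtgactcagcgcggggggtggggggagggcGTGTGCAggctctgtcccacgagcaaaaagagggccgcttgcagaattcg
The Mt1 window held 1 match and the Mt2 window 3, where the Mt3 window held 0. Bases after the end of each window were not searched, so these counts do not rank the promoters of the genes. Of 32851 RefSeq windows of this length, 21.4% held at least 1 match and 1.26% at least 3. These letters describe the windows and were not tested for binding.

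**Figure D2:**
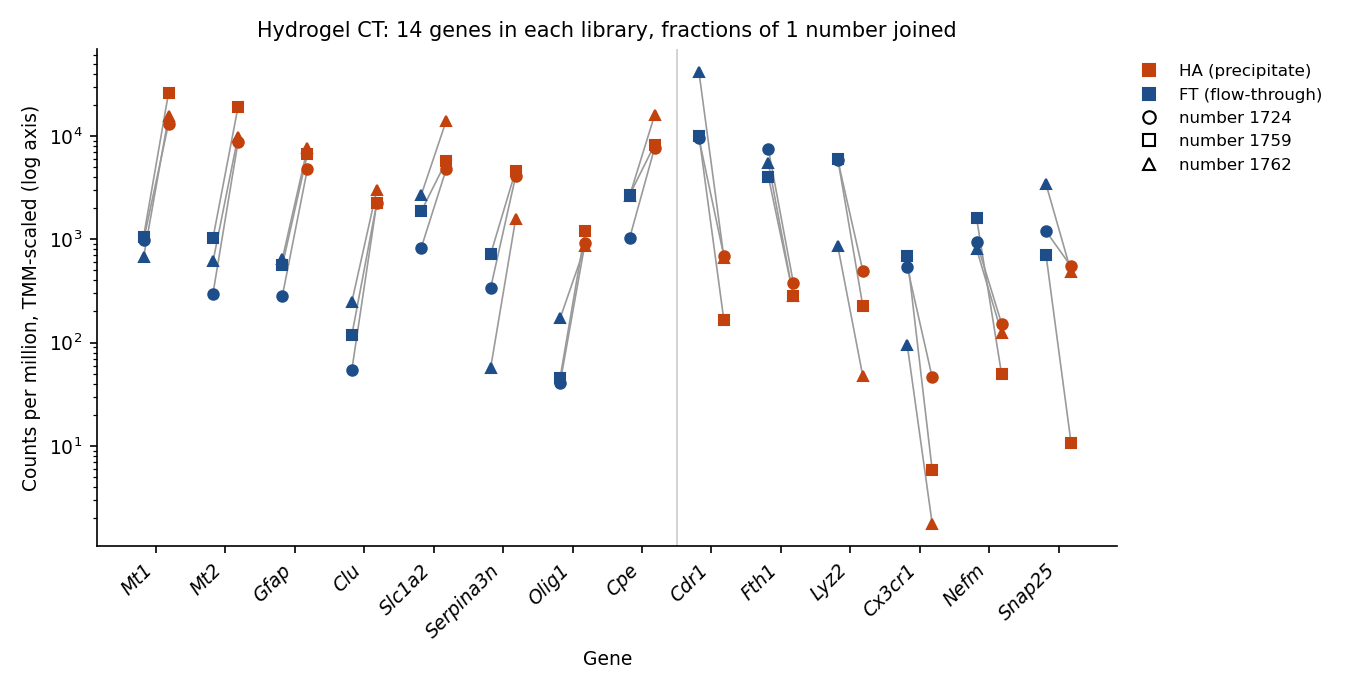
Level of 14 genes in each of the 6 libraries, in CPM on a log axis; blue symbols are FT, orange symbols HA, and a grey line joins the 2 fractions of a number (circle 1724, square 1759, triangle 1762). Each line rises to the left of the divider and falls to the right of it, and the HA libraries spread most for Cx3cr1, Snap25 and Lyz2.

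Astrocyte markers were the largest group of cell type genes to rise. Of 15 tested, 10 were called higher and 0 lower, where 4% of all genes were higher. The count was 5 without the block, in the fit of 20 libraries and with a mean of at least 50 CPM, and 6 without 1724 or with the DESeq2 test. Their median log2 difference was 2.08, against 0.62 for all genes, and 13 of the 15 had a read in every FT library. The difference was positive for 14 and negative for 1, which was not called. As a share of protein-coding counts the 15 genes took 5.93, 5.71 and 8.61 percent in HA and 2.07, 2.94 and 3.24 percent in FT. The flow-through was thus not free of astrocyte transcripts. Another 5 listed markers, Aldh1l1, Slc7a10, Fgfr3, Acsl6 and Mlc1, were not among the genes listed for both fractions.

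Gfap, the intermediate filament that defines reactive astrocytes and whose promoter drives Cre here (chromosome 11, 102887336 to 102900912), stood at 4780.5, 6654 and 7577 CPM in HA and 285, 564 and 648 CPM in FT. The fractions did not overlap, and the fitted difference was 13.2-fold (log2 3.72, SE 0.42, adjusted p = 1.20e-15). Clu, a secreted chaperone and lipoprotein component, rose from 54.3, 118 and 248 CPM in FT to 2264, 2254 and 3004 CPM in HA, or 20.1-fold (log2 4.33, SE 0.52, adjusted p = 6.14e-14). The 3 HA libraries agreed closely for Clu, while FT 1762 was the highest of the FT libraries and FT 1724 the lowest. Slc1a2, the main glutamate transporter of astrocytes, stood at 4767, 5693 and 14020 CPM in HA and 827, 1864 and 2686 CPM in FT (log2 2.17, SE 0.37, adjusted p = 1.04e-06). HA 1762 was more than double the other HA libraries for this gene, and its FT partner was also the highest in FT. Slc4a4, a sodium bicarbonate transporter, stood at 2121, 924 and 2244 CPM in HA and 149, 227 and 686 CPM in FT (log2 2.46, SE 0.50, adjusted p = 5.50e-05).

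The other calls in this list were lost without the block or without 1 of the numbers. The water channel Aqp4 stood at 2649, 3382 and 5357 CPM in HA and 732, 1409.7 and 1467 CPM in FT (log2 1.66, SE 0.41, adjusted p = 0.00198), but did not pass without the block (0.0835). The gap junction protein Gja1 was called at log2 1.73 (SE 0.55, adjusted p = 0.0345). FT 1762, at 781 CPM, lay above HA 1724 and HA 1759, and the call was lost without 1724 (0.415), without 1759 (0.156) and without the block (0.318). Its partner Gjb6 was called at 1.67 (SE 0.55, adjusted p = 0.0451) and was lost without 1724 (0.27), 1759 (0.0765), 1762 (0.201) or the block (0.225). The glycolytic enzyme Aldoc was called at 2.08 (SE 0.57, adjusted p = 0.0079) and was lost without 1724, 1759 or 1762 (0.0607, 0.0566 and 0.0905), at log2 differences of 1.84, 2.43 and 2.26, and without the block (0.0973). Fabp7, a fatty acid binding protein of radial glia, had 0, 27 and 17 reads in FT against 3113, 807 and 510.4 CPM in HA, with HA 1724 far above the others. It was called at 2.61 (SE 0.58, adjusted p = 0.000415) but not without 1724 (0.328). Ntsr2, a neurotensin receptor, was called at 2.85 (SE 0.70, adjusted p = 0.00217) but not without 1762 (0.0896) or without the block (0.0664).

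Of the astrocyte markers that did not pass, the transcription factor Sox9 stood at 181, 174 and 175 CPM in HA and 13.6, 36.4 and 38.1 CPM in FT, the latter from 1, 4 and 2 reads (log2 2.63, SE 0.94, adjusted p = 0.0723). The groups did not overlap, but so few reads left a wide error. Glutamine synthetase, Glul, stood at 1348, 1759.5 and 4477 CPM in HA and 1356, 1837 and 1696 CPM in FT, and the fractions overlapped (log2 0.43, SE 0.42, adjusted p = 0.662). The other glutamate transporter, Slc1a3, overlapped as well, at 158, 36.4 and 126 CPM in HA and 94.9, 36.4 and 38.1 CPM in FT (log2 0.78, SE 0.95, adjusted p = 0.758).

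Several further genes among the 14 with the smallest p in this direction are not cell type markers. Ckb, the brain form of creatine kinase, rose from 94.9, 155 and 762 CPM in FT to 1581, 3677 and 3559 CPM in HA (log2 3.58, SE 0.49, adjusted p = 1.21e-10). Tst, a mitochondrial sulfurtransferase known as rhodanese, had 0, 2 and 5 reads in FT and stood at 557, 697 and 1016 CPM in HA (log2 4.76, SE 0.71, adjusted p = 5.86e-09). Cpe, the carboxypeptidase that trims prohormones, stood at 7594, 8179.7 and 15760.2 CPM in HA and 1017, 2674 and 2610.1 CPM in FT (log2 2.37, SE 0.37, adjusted p = 1.94e-08). All 3 HA libraries exceeded all 3 FT libraries for these genes. Asrgl1, an asparaginase, and Hsbp1, which binds heat shock factor, rose by log2 3.72 (SE 0.64, adjusted p = 1.10e-06) and 2.70 (SE 0.48, adjusted p = 2.49e-06). Lars2, a mitochondrial leucyl-tRNA synthetase locus that also collects ribosomal RNA reads, took 5.51% to 8.08% of HA and 3.76% to 4.99% of FT counts.

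Of the reactive astrocyte genes, 1 of 5 tested passed as higher and 0 as lower, where 4% and 1.72% of all genes did. It was Serpina3n, a secreted serine protease inhibitor, which stood at 4072, 4624 and 1572 CPM in HA and 339, 718 and 57.2 CPM in FT (log2 3.52, SE 0.47, adjusted p = 3.66e-11). Number 1762 was the lowest in both fractions, with 3 reads in FT, yet the step within each number pointed the same way. Complement C3 had 1, 1 and 0 reads in FT and stood at 157, 174 and 33.7 CPM in HA, just outside the threshold (log2 4.04, SE 1.36, adjusted p = 0.0503). The chemokine Cxcl10 had 0 reads in every FT library against 42.8, 118 and 36.9 CPM in HA, which is at least 4.81-fold when 3 reads over the FT group are allowed, and it did not pass (adjusted p = 0.0515). Vim, another intermediate filament, stood at 454, 573 and 314 CPM in HA and 203, 155 and 114 CPM in FT without overlap (log2 1.51, SE 0.60, adjusted p = 0.127). Osmr, a receptor subunit for oncostatin M, was the one member with a negative difference, with 60, 129 and 217 reads in HA and 5, 2 and 0 in FT and overlapping levels (log2 -0.45, SE 1.59, adjusted p = 0.935). The median log2 difference of the 5 genes was 3.52, which includes the fitted value of Cxcl10, a gene with 0 reads in every FT library. Only 2 of the 5 had a read in every FT library.

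Chondroitin sulfate proteoglycans and tenascins occur in the scar, and several of them restrain axon growth. What the listed members do to axons was not tested here. Of 7 tested, 2 were called higher and 0 lower, where 4% of all genes were higher. The 2 genes called passed the filter only with the help of their HA reads, and 1 of them had 0 reads in every FT library. Without any single number, and with DESeq2 size factors or the DESeq2 test, 1 was called. The list had a median log2 difference of 2.70, and 2 of the 7 had a read in every FT library. Cspg5 had 2, 6 and 0 reads in FT and stood at 257, 333 and 147 CPM in HA (log2 3.24, SE 0.88, adjusted p = 0.007). This call was lost without 1759 (0.155), without 1762 (0.0605) and without the block (0.0501), and without the block 0 of the 7 passed. Brevican, Bcan, stood at 154, 189 and 194 CPM in HA and 0, 54.6 and 38.1 CPM in FT (log2 2.70, SE 0.95, adjusted p = 0.0646). Neurocan, Ncan, differed most between HA libraries, at 1584, 161 and 339 CPM, and stood at 122, 72.8 and 248 CPM in FT (adjusted p = 0.0646). The receptor phosphatase Ptprz1 stood at 953, 387 and 485 CPM in HA and 81.4, 355 and 152 CPM in FT (adjusted p = 0.0767). Summed over the list, the genes took 0.709, 0.247 and 0.231 percent of protein-coding counts in HA and 0.0871, 0.164 and 0.133 percent in FT. Number 1724 carried the widest step.

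Of 8 glial factors that support axon growth, 2 were called higher and 1 lower, where 4% and 1.72% of all genes were. Sparcl1, a secreted matricellular protein that promotes synapse formation, stood at 3885, 2119 and 10053 CPM in HA and 122, 1028 and 2096 CPM in FT (log2 2.59, SE 0.44, adjusted p = 5.03e-07). FT 1724 lay far under the other FT libraries, and HA 1759 stood close to FT 1762. Without the block it did not pass (0.0655). The heparan sulfate proteoglycan Sdc4 did not overlap, at 691, 1053 and 924 CPM in HA and 27.1, 127 and 209.6 CPM in FT (log2 3.10, SE 0.59, adjusted p = 1.58e-05). The growth factor Igf1 went the other way, with 237, 1 and 132 reads in HA and 16, 53 and 2 in FT (log2 -3.98, SE 1.00, adjusted p = 0.00286). HA 1759 held a single read of Igf1 where its FT partner held 53. Without 1759 the call was lost (0.741).

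Oligodendrocyte lineage genes were also present in the precipitate. Of 6 progenitor markers tested, 3 were called higher and 0 lower, where 4% of all genes were higher, and 4 of the 6 had a read in every FT library. One of the 3 had 0 reads in every FT library and passed the filter through HA alone. Another, Olig2, had 1 read in each FT library, and Olig1 had 3, 5 and 9, so the calls rest on few FT reads. The count was 2 without the block and under both DESeq2 alternatives, and 1 without 1759. Olig1, a lineage transcription factor, stood at 925, 1189.6 and 853 CPM in HA and 40.7, 45.5 and 171 CPM in FT, a 13.6-fold difference (log2 3.77, SE 0.62, adjusted p = 1.69e-07). Its relative Olig2 had 1, 1 and 1 reads in FT and stood at 381, 299 and 119 CPM in HA (log2 4.33, SE 0.99, adjusted p = 0.000647). The HA libraries of both genes lay above all FT libraries. The call of Olig2 was lost without 1759 (0.113). Cacng4, an AMPA receptor regulator, stood at 212, 228 and 181 CPM in HA and 54.3, 27.3 and 76.2 CPM in FT and did not pass (log2 2.08, SE 0.82, adjusted p = 0.119). Gpr17, a receptor of cells that leave the progenitor stage, overlapped between fractions (log2 2.02, SE 1.44, adjusted p = 0.521).

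Genes of mature oligodendrocytes and myelin showed no common step. Of 11 tested 1 was higher and 0 lower, against 4% and 1.72% of all genes, and their median of 0.78 was close to the 0.62 of all genes. They took 1.38, 2.04 and 0.844 percent of protein-coding counts in HA and 1.60, 1.48 and 0.817 percent in FT. Myelin basic protein, Mbp, had 124, 69 and 89 reads in HA and 1, 5 and 0 in FT (log2 -0.34, SE 1.70, adjusted p = 0.959).

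**Figure D3:**
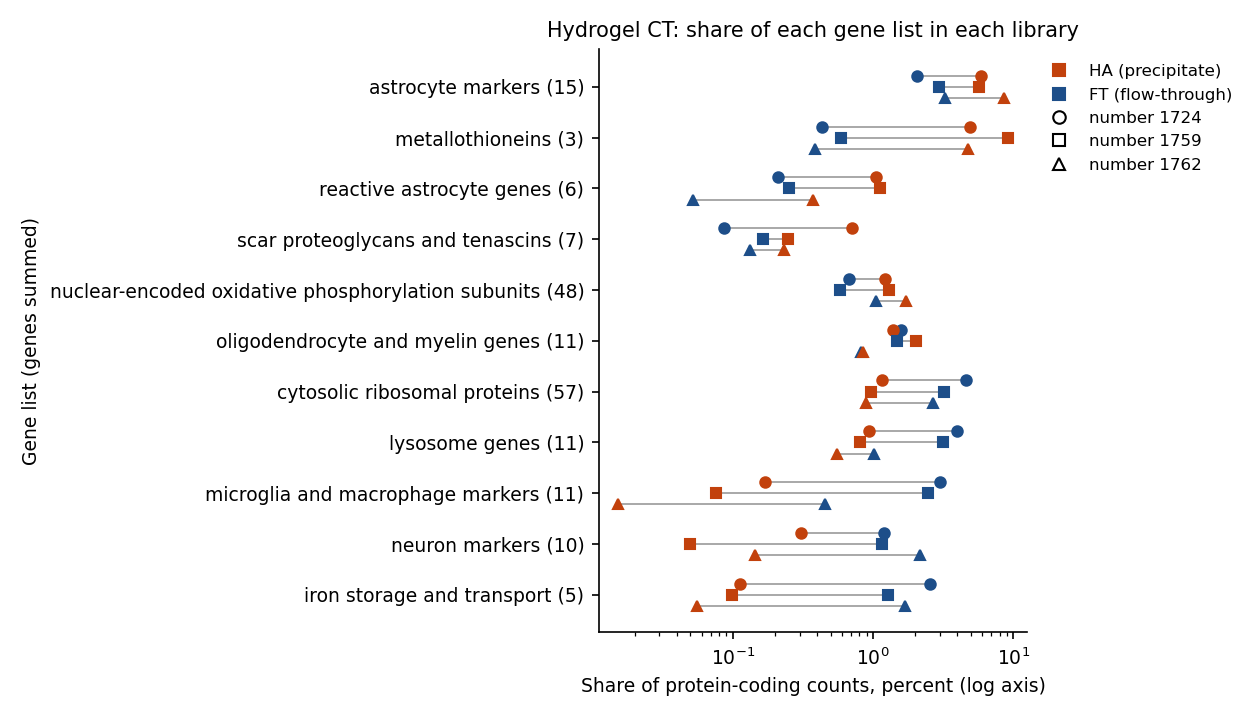
Share of protein-coding counts without Lars2, in percent on a log axis, that each gene list took in each library; the number of genes summed stands in brackets, and a grey line joins the FT (blue) and HA (orange) library of a number. Metallothioneins took 4.74 to 9.17 percent in HA against 0.388 to 0.589 percent in FT, while microglia and macrophage markers took 0.0153 to 0.170 percent against 0.458 to 3.01 percent.

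Microglia and macrophage transcripts were depleted from the precipitate in every number. Of 10 markers tested, 7 were called lower and 0 higher, where 1.72% of all genes were lower, and their median log2 difference was -4.23. The list took 0.170, 0.0762 and 0.0153 percent of protein-coding counts in HA and 3.01, 2.48 and 0.458 percent in FT. HA thus held 0.0565, 0.0307 and 0.0335 times the share of its FT partner. FT 1762 held the least of the FT libraries and HA 1762 the least of the HA libraries. Aif1, P2ry12, Tmem119, Csf1r and Itgam were not among the genes listed for both fractions.

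Lyz2, the lysozyme of myeloid cells (chromosome 10, 117277331 to 117282321), stood at 497, 227 and 47.5 CPM in HA and 5846, 5984 and 857 CPM in FT. The fractions did not overlap, and the gene was 17.7-fold lower in HA (log2 -4.15, SE 0.46, adjusted p = 8.52e-17). The leukocyte tetraspanin Cd53 had 51, 43 and 0 reads in the deep HA libraries and 40, 48 and 4 reads in the shallow FT libraries (log2 -6.64, SE 0.85, adjusted p = 1.71e-12). The fractalkine receptor Cx3cr1, a marker of microglia, stood at 46.0, 5.85 and 1.77 CPM in HA and 543, 691 and 95.3 CPM in FT (log2 -5.36, SE 0.76, adjusted p = 5.16e-10). For these 3 genes FT 1762 lay well under the other FT libraries but still above its own HA partner. Tyrobp, the signalling adaptor of myeloid receptors, was steadier, at 3.05, 3.41 and 10.1 CPM in HA and 298, 164 and 209.6 CPM in FT (log2 -5.51, SE 0.98, adjusted p = 2.12e-06). The complement subunits C1qc and C1qb, made by microglia and macrophages, stood at -3.52 (SE 0.66, adjusted p = 1.16e-05) and -3.46 (SE 0.68, adjusted p = 2.77e-05). C1qb was lost without 1759 (0.0524). The scavenger protein Cd68 was called at -5.28 (SE 1.55, adjusted p = 0.0161) from 7, 10 and 1 reads in FT, and was lost without 1724 (0.115), 1759 (0.338), 1762 (0.122) or the block (0.0567). C1qa, the third subunit, had 31, 167 and 1 reads in HA and 4, 4 and 0 in FT and did not pass (adjusted p = 0.669).

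Other myeloid genes outside the list stood among the 14 with the smallest p. Mpeg1, a pore-forming protein of macrophages, stood at 102, 105 and 29.9 CPM in HA and 1885, 1755 and 267 CPM in FT (log2 -3.84, SE 0.55, adjusted p = 5.70e-10). Fcer1g, the shared gamma chain of Fc receptors, stood at 53.3, 48.4 and 32.9 CPM in HA and 1695, 837 and 286 CPM in FT (log2 -4.11, SE 0.59, adjusted p = 7.92e-10). In both genes the highest HA library lay under the lowest FT library. Ly86, a partner of a toll-like receptor relative, stood at 9.48, 126 and 4.62 CPM in HA and 895, 509 and 305 CPM in FT (log2 -5.00, SE 0.74, adjusted p = 2.76e-09), with HA 1759 above the other 2. Wfdc17, a small secreted protein of activated macrophages, had 0 reads in every HA library and 15, 7 and 1 in FT. The call passed (adjusted p = 1.16e-06), but most FT reads lay in 1724, and without 1724 the gene did not pass the filter on low counts. Rgs2, a regulator of G protein signalling that is not confined to one cell type, stood at 30.0, 4.71 and 3.44 CPM in HA and 326, 291 and 171 CPM in FT (log2 -4.99, SE 0.87, adjusted p = 1.58e-06).

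Lysosome genes are expressed strongly by phagocytes but used by all cells. Of 10 tested 2 were called lower and 0 higher, where 1.72% of all genes were lower, all 10 had a negative difference, and the median was -1.04. Gpnmb, a glycoprotein of lipid-laden macrophages, stood at 479, 80.7 and 80.2 CPM in HA and 2780.4, 1719 and 324 CPM in FT (log2 -3.00, SE 0.52, adjusted p = 1.04e-06). HA 1724 lay above FT 1762, so the fractions overlapped although each number showed the step. The cathepsin Ctsb stood at 1557, 1755 and 1173 CPM in HA and 4544, 4675 and 1124 CPM in FT. The step was wide in 1724 and 1759 and absent in 1762 (log2 -0.99, SE 0.41, adjusted p = 0.149, and 0.00462 without 1762).

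Part of the neuronal transcripts were lower in HA as well. Of 10 neuron markers tested, 5 were called lower and 0 higher, where 1.72% of all genes were lower, and without 1759 only 2 were. The list had a median log2 difference of -2.96. They took 0.306, 0.0494 and 0.145 percent of protein-coding counts in HA and 1.21, 1.17 and 2.15 percent in FT. HA 1759 held the least of the HA libraries, and FT 1762, the library with the fewest myeloid reads, held the most of the FT libraries. The synaptic protein Snap25 stood at 547, 10.7 and 486 CPM in HA and 1194, 700.3 and 3410.2 CPM in FT (log2 -3.19, SE 0.54, adjusted p = 6.96e-07). Number 1759 carried much of this difference: without it the log2 difference was -1.90 and did not pass (0.065), nor did it pass without the block (0.111).

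The neurofilament subunits, which fill large axons, fell more evenly. Nefm stood at 152, 49.4 and 124 CPM in HA and 936, 1592 and 800.2 CPM in FT (log2 -3.42, SE 0.56, adjusted p = 1.67e-07). Nefl stood at 209, 48.4 and 69.7 CPM in HA and 705, 1073 and 1296 CPM in FT (log2 -3.53, SE 0.58, adjusted p = 1.69e-07). Nefh was called at -3.55 (SE 0.77, adjusted p = 0.000237) and was lost without 1759 (0.0929). For all 3 subunits the HA libraries lay under all FT libraries. Slc17a6, a vesicular glutamate transporter, had 3, 3 and 20 reads in FT, most of them in 1762, and did not pass (log2 -3.69, SE 1.35, adjusted p = 0.0803).

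**Figure D4:**
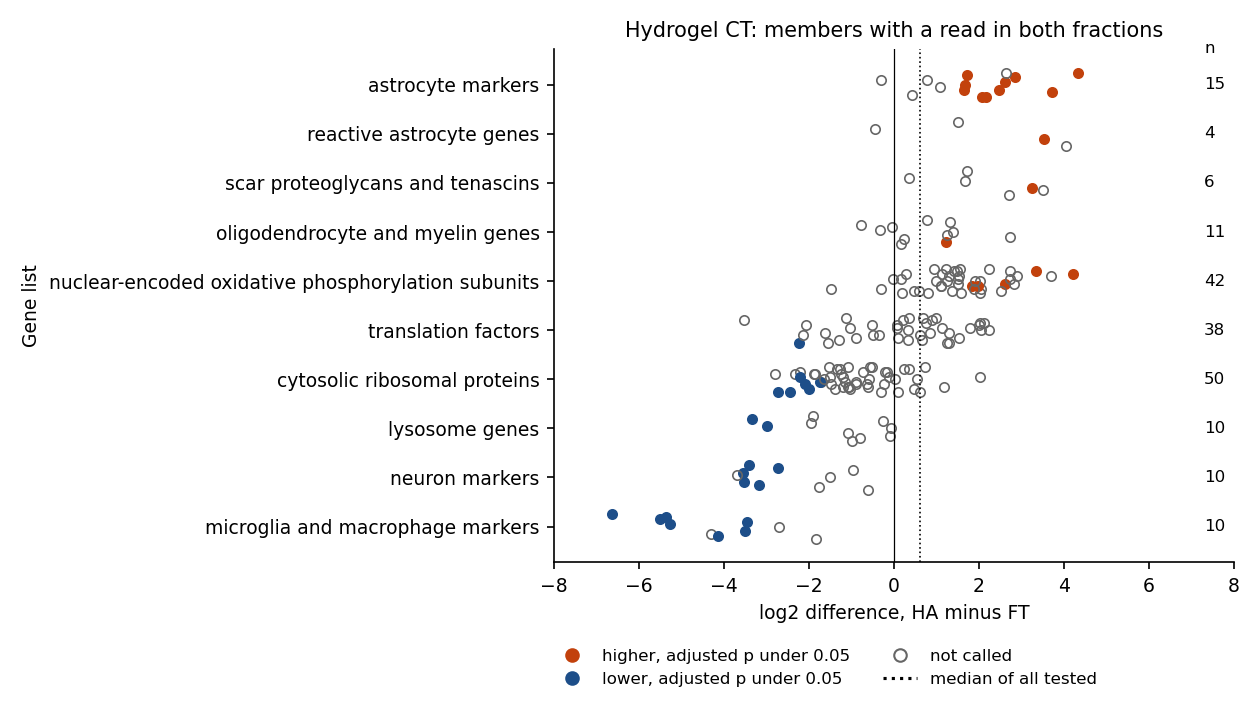
Log2 difference, HA minus FT, of every member with a read in both fractions, for 10 gene lists; filled orange points were called higher, filled blue points lower, open points were not called, n is the number of members drawn, and the dotted line is the 0.62 median of all genes. Microglia, neuron and lysosome members all lie left of 0, and astrocyte markers mostly to the right of the dotted line.

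Markers of other cell types could be followed only in part. Of 10 endothelial and 10 lymphocyte and neutrophil markers, 0 were among the genes listed for both fractions, so these cells were not analysed here. Of 2 Schwann cell markers and 1 ependymal marker 0 were called. Col1a1, a fibroblast collagen, had 434, 104 and 6 reads in HA and 4, 6 and 0 in FT (log2 -0.59, SE 1.49, adjusted p = 0.896). The ependymal factor Foxj1 had 27, 30 and 145 reads in HA and 0 in every FT library, where 3 reads over the FT group are worth more than its HA level, so no fold is given.

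Of 51 cytosolic ribosomal proteins tested, 6 were called lower and 0 higher, where 1.72% of all genes were lower, and 40 had a negative difference. Their median was -1.06. They took 1.16, 0.972 and 0.898 percent of protein-coding counts in HA and 4.61, 3.20 and 2.68 percent in FT, lower in HA within each number. Rps4x stood at 179, 95.8 and 77.5 CPM in HA and 936, 628 and 667 CPM in FT (log2 -2.73, SE 0.56, adjusted p = 7.11e-05), and its call held in every alternative. Rps24 was called at -2.22 (SE 0.53, adjusted p = 0.00134) and was lost without 1724 (0.0573) or 1759 (0.153). Rpl4, Rps12, Rpl32 and Rpl27a were called at -1.73, -2.01, -2.09 and -2.46, and none of them passed without 1759 (0.158, 0.323, 0.234 and 0.763) or without the block (0.0786, 0.05, 0.059 and 0.174). Rps12 was also lost without 1724 (0.138), and Rpl4, Rpl32 and Rpl27a without 1762 (0.0729, 0.127 and 0.301). Without the block 2 of the 51 were lower and without 1759 1 of 53 tested. Other settings gave more lower calls: 9 with DESeq2 size factors, 10 with the DESeq2 test and 12 of 32 tested with a mean of at least 50 CPM. Ribosomal protein genes have many near-identical pseudogenes that the counting may not separate.

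Rpl22, the protein that carries the tag in RiboTag mice, stood at 54.2, 65.3 and 35.2 CPM in HA and 40.7, 27.3 and 38.1 CPM in FT (log2 0.55, SE 1.18, adjusted p = 0.881). Its FT level rested on 3, 3 and 2 reads, and tagged and untagged messages were counted together. Of 38 translation factors 1 was lower and 0 higher, a share near the 1.72% of all genes. It was Eef1a1, the elongation factor that brings transfer RNA to the ribosome, at 1509, 974 and 864 CPM in HA and 8328, 6612 and 2439 CPM in FT (log2 -2.25, SE 0.40, adjusted p = 1.94e-06).

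Nuclear genes for subunits of oxidative phosphorylation leaned the other way. Of 45 tested 5 were called higher and 0 lower, where 4% of all genes were higher, 42 had a positive difference, and the median was 1.54 against 0.62. Only 27 of the 45 had a read in every FT library. The others passed the filter on low counts only with the help of their HA reads, Cox6b1 among them. Cox6b1, a subunit of cytochrome c oxidase, had 0, 7 and 1 reads in FT and stood at 259.7, 578 and 597 CPM in HA (log2 4.22, SE 0.78, adjusted p = 6.40e-06). The other 4 calls were Ndufb9 of complex I at 3.34, Cox7a2 and Cox8a of cytochrome c oxidase at 2.62 and 1.85, and Sdhc of complex II at 1.97. None of these 4 passed without the block (0.0501, 0.0521, 0.144 and 0.067), without 1759 (0.408, 0.11, 0.487 and 0.219) or without 1762 (0.0551, 0.211, 0.154 and 0.274). Ndufb9 and Cox7a2 were also lost without 1724 (0.106 and 0.199). As a group, the 48 genes listed took 1.22, 1.30 and 1.73 percent of protein-coding counts in HA and 0.679, 0.581 and 1.06 percent in FT.

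Of 6 genes listed as noncoding RNAs that stay in the nucleus, 2 were called lower and 0 higher, where 1.72% of all genes were lower. The count of lower calls was 6 with the DESeq2 test and 3 of 5 tested with a mean of at least 50 CPM. It was 1 without 1759 and 1 without 1762. All 6 had a negative difference, and the median was -2.82. Malat1, a long noncoding RNA of nuclear speckles, stood at 2476, 1829.9 and 772 CPM in HA and 11827, 19044 and 6420.3 CPM in FT (log2 -2.90, SE 0.36, adjusted p = 7.27e-13). Snhg11, which is also in the neuron list, stood at -2.74 (SE 0.69, adjusted p = 0.00286) and was lost without 1759 (0.257) or 1762 (0.104). The annotation used here types Snhg11 as protein-coding, so its reads were among the protein-coding counts. Meg3 stood at 22.3, 42.2 and 33.7 CPM in HA and 122, 127 and 114 CPM in FT, without overlap. It did not pass (log2 -1.93, SE 0.97, adjusted p = 0.276, and 0.0391 with the DESeq2 test). The small nuclear RNA Rn7sk, which restrains transcription elongation and was picked after its values were seen, had 72, 111 and 57 reads in HA and 23, 114 and 10 in FT (log2 -5.22, SE 0.70, adjusted p = 2.84e-11).

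Cdr1 had the smallest p of all genes. It stood at 683, 164 and 661 CPM in HA and 9480.3, 10086 and 41666 CPM in FT, a 38.6-fold lower level in HA (log2 -5.27, SE 0.39, adjusted p = 1.30e-37). FT 1762 was about 4 times the other FT libraries, and Cdr1 alone took 12.7% of its protein-coding counts. The locus (chromosome X, 61184005 to 61185558) is better known for a circular RNA from the opposite strand, which is abundant in neurons, and without a stated strand setting the reads of the 2 strands could not be told apart. Fth1, the heavy chain of ferritin that stores iron, stood at 378, 285 and 280.0 CPM in HA and 7459, 4029 and 5487 CPM in FT (log2 -4.14, SE 0.43, adjusted p = 1.34e-18). The lowest FT library lay far above the highest HA library. The other 4 iron genes tested did not pass, and ferritin genes also have many pseudogenes.

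Other lists fixed for the tissue gave few calls, each read against 4% higher and 1.72% lower. Of 5 proliferation genes 1 was higher, the cyclin Ccnd2, with 0, 2 and 0 reads in FT and 289.5, 296 and 319.9 CPM in HA (log2 5.33, SE 1.02, adjusted p = 1.70e-05). Its 3 HA libraries differed by little. Of 12 tubulins and cytoskeletal genes 2 were higher. Tuba1a stood at 2.11 (SE 0.59, adjusted p = 0.00875) and Tubb2b at 3.22 (SE 0.93, adjusted p = 0.0144). Both were lost without 1724 (0.0812 and 0.166) or 1759 (0.234 and 0.212), and Tuba1a also without the block (0.0526). Of 7 antigen presentation and interferon genes 1 was higher, Ifit3 at 3.87 (SE 1.29, adjusted p = 0.0473), from 0, 3 and 0 reads in FT. It was lost without 1724 (0.105), 1759 (0.275), 1762 (0.268) or the block (0.0894). B2m, the light chain of class I molecules, stood at 487, 311 and 1481 CPM in HA and 1804, 937 and 1086 CPM in FT (log2 -1.05, SE 0.48, adjusted p = 0.212, and 0.038 without 1762). Of 3 genes each on FGF and EGF signalling and on immediate early responses, 0 were called. The feedback phosphatase Dusp6 had 34, 4 and 64 reads in HA and 10, 2 and 0 in FT (log2 -3.45, SE 1.75, adjusted p = 0.282). Of 9 glycolysis and 9 cholesterol genes 1 each was higher, Aldoc and Clu, which also stand in the astrocyte list.

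Whether the step between fractions with the hydrogel differed from that in the other treatments was asked in 1 fit of the 20 libraries of the 10 numbers with both fractions. The other groups were injury alone (SCI only, 4 numbers) and injury with a hydrogel carrying growth factors (3 numbers), collected on the same day. The series title names these factors as FGF and EGF and the column names as BDNF and NT3, a conflict not settled here. The SCI only libraries were of another depth and makeup, with 2241603 to 5432938 counts in FT and Yam1 at 87.8% to 93.1% over both fractions. With growth factors, FT libraries held 40432 to 145365 counts, and Yam1 took 13.8% to 77.7% of them. In this fit 184 of 4747 genes (3.88%) differed between fractions with hydrogel CT, 2.53% higher and 1.35% lower in HA. With SCI only 266 (5.6%) differed, 2.99% higher and 2.61% lower, and with growth factors 447 (9.42%), 7.35% higher and 2.06% lower. These counts do not compare the treatments.

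Against SCI only, the steps differed in 0 of 4747 genes (0%), with 206 at an unadjusted p under 0.05 in edgeR. The smallest p there was that of Jakmip3, a neuronal protein that binds microtubules, which did not pass in edgeR (log2 difference of the steps -8.70, SE 2.08, adjusted p = 0.34). It was the 1 gene that the DESeq2 test called (adjusted p = 0.00102), and edgeR called it without 1724 (adjusted p = 0.000694). Its reads were 33, 3 and 0 in HA and 0, 23 and 3 in FT with hydrogel CT. For Gfap the steps were 3.78 (SE 0.61) with hydrogel CT and 3.17 (SE 0.51) with SCI only, a difference of 0.61 (SE 0.73, adjusted p = 0.998). For Mt1 they were 4.37 (SE 0.57) and 3.68 (SE 0.48), and for Lyz2 -4.09 (SE 0.66) and -4.19 (SE 0.59). Serpina3n stood at 3.59 (SE 0.62) against 1.96 (SE 0.48), a difference of 1.63 (SE 0.75, adjusted p = 0.998). Cx3cr1 stood at -5.30 (SE 0.96) against -1.43 (SE 0.96), a difference of -3.87 (SE 1.33, adjusted p = 0.998). With errors this wide, equal steps are not shown.

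Against the hydrogel with growth factors 1 of 4747 genes (0.0211%) passed, lower with hydrogel CT, and 378 had an unadjusted p under 0.05. It was Nckap1l, an actin regulator of blood and microglial cells. Its step was -6.16 (SE 1.21) with hydrogel CT and 3.35 (SE 1.44) with growth factors, a difference of -9.50 (SE 1.88, adjusted p = 0.0121). The 3 HA libraries with growth factors held 450, 0 and 53 reads, with most of the reads in 1 library. The call was lost without 1759 (0.0884), without 1762 (0.113) and without the block (0.172). Malat1 stood at -2.84 (SE 0.55) with hydrogel CT and 0.33 (SE 0.54) with growth factors, and the difference did not pass (-3.17, SE 0.76, adjusted p = 0.0753). Lars2 and Yam1, which collect ribosomal RNA reads, differed in the same direction without passing. Their differences were -2.81 (SE 0.67, adjusted p = 0.0753) and -2.50 (SE 0.68, adjusted p = 0.225).

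**Figure D5:**
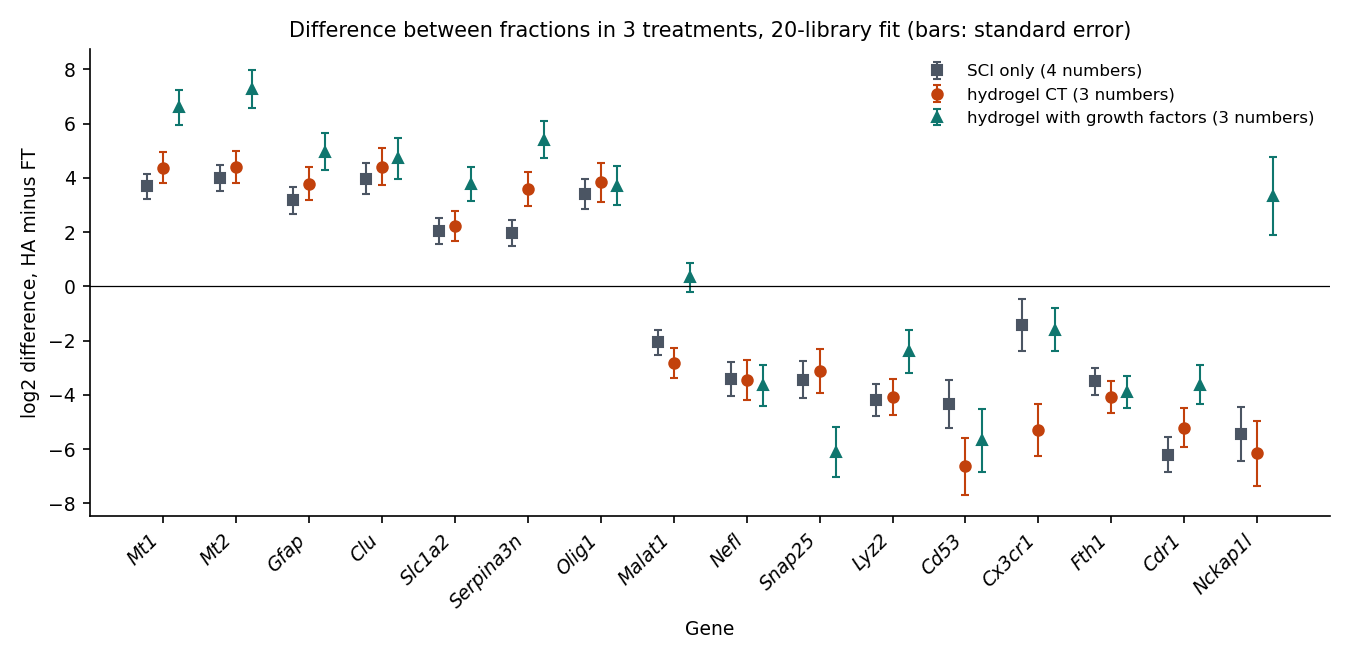
Log2 difference, HA minus FT, of 16 genes in each of the 3 treatments, from 1 fit of 20 libraries; symbols are fitted values and bars their standard errors. With hydrogel CT (orange circles) the 7 genes on the left lie above 0 and the other 9 below, and of these genes only Nckap1l differed between hydrogel CT and another treatment at an adjusted p under 0.05.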

How the data were processed

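Counts of 6 libraries were analysed, 3 of HA and 3 of FT. Libraries were made from amplified cDNA (NuGEN Ovation) and sequenced as read pairs, per the labels' protocols. The authors deposited whole-number read counts per Ensembl transcript, 1 table per fraction. CASAVA 1.8.2, edgeR and mm10 are named in the submitters' processing notes. Not given in the sources used here were the aligner, counter, strand setting and annotation. A further 45 columns of per-sample values were not used.

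Counts were summed per gene symbol. Rows without a symbol, 0.0706% to 0.273% of a library, were left out. Gene type, length, GC content and mm10 position came from GENCODE release M21, which matched 99.7% of the transcript rows used. Genes listed for both fractions (4781) entered edgeR 4.0.16 (R 4.3.3), whose quasi-likelihood test was run two-sided with TMM scaling, filterByExpr (minimum count 10), Benjamini-Hochberg adjustment and a threshold of 0.05. The title number was a block. With 2 residual degrees of freedom the fit gave every gene the common trend of spread. Levels are CPM, printed per library. The script was tested on simulated data.

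That a shared number marks the same tissue was taken from the study's description. Deviations from the group means correlated within a number at 0.0028, 0.034 and 0.073 over all genes, and between numbers at -0.080 to 0.053, so the data alone hardly show the pairing. Libraries of 1 fraction differed beyond sampling noise (chi-square over its degrees of freedom at least 4.84). Alternatives were TMMwsp and DESeq2 size factors, DESeq2 1.42.0, other filters, protein-coding genes alone, no block, other sets of libraries and, added after seeing the data, robust moderation.

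The comparison and the gene lists were chosen with earlier results of these data known. Named genes are the 14 protein-coding genes with the smallest p in each direction whose 3 pairs agree in sign, up to 6 of smallest p in each list with any called in the other direction, 26 fixed genes, and the 8 of smallest p per difference between treatments; the text prints part of them. Some called genes are not reported here. Motif letters were searched in RefSeq promoter windows of 250 bases.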

Additional observations from a re-analysis of the deposited data

Results flagged for a closer look

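The step between fractions of Nckap1l differed between hydrogel CT and the hydrogel with growth factors by a tested log2 difference of -9.50 (SE 1.88, adjusted p = 0.0121, edgeR's quasi-likelihood test). Its reads were few in every library of these groups but 1, with 33, 4 and 3 in HA and 6, 17 and 3 in FT with hydrogel CT, and 450, 0 and 53 in HA and 3, 0 and 0 in FT with growth factors. Over 9 alternatives its adjusted p ranged from 0.000987 to 0.172. Groups of 3 were not searched for single libraries that stand apart.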

How the results depend on the processing

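Of the 28 genes with the smallest p, 19 kept their call in every alternative that gave a value. Of all 66 named genes that were called, 25 did. Calls were also gained: of 22 named genes not called, 9 were called in at least 1 alternative. These were B2m, C3, Ctsb, Cxcl10, Dusp6, Meg3, Ncan, Ptprz1 and Slc17a6. No call reversed. The count of higher genes was 73 with a mean of at least 50 CPM and 78 without the replicate block, and that of lower genes was 189 with the DESeq2 test. Leaving out 1 number gave 72 to 109 higher and 28 to 64 lower. With FT library 1683 added, which has no HA partner and 19607 counts, and no replicate block, 736 genes were tested, with 31 higher and 34 lower; Slc1a2 (adjusted p = 0.871), Olig1 (0.122), Ckb (0.173), Cpe (0.123), Slc4a4 (0.646), Sdc4 (0.122), Asrgl1 (0.0563), Gpnmb (0.0764), Eef1a1 (0.0633), Malat1 (0.0609) and Lars2 (0.404) did not pass there, where fewer genes and other libraries entered. Among genes not called, Glul stood at -0.040 with a mean of at least 50 CPM and -0.33 with library 1683. Leaving out 1 number moved Mbp from -0.90 to 1.17 and Col1a1 from -1.50 to 0.37, both highest without 1759. The differences between treatments gave 1 lower gene against SCI only with the DESeq2 test. Leaving out 1 number gave 0 to 1 there and 0 to 2 lower genes against growth factors. Against growth factors, higher genes numbered 18 with the DESeq2 test, 1 with DESeq2 size factors and 1 with protein-coding genes alone, and lower genes 4 with the DESeq2 test, 2 with protein-coding genes alone, 0 with a mean of at least 50 CPM and 0 without the replicate block. Apart from the fits with fewer libraries or genes, the cause was not tested. In FT 1 read was worth 9.09 to 19.1 CPM, and whether this depth limited the calls was not tested.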
